A study of Gallus gallus with 6 samples.

Results

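Glycolytic enzyme transcripts were followed across 6 RNA libraries of the chicken feather follicle. The genes were chosen by symbol: TPI1, GAPDH, ENO1, PGK1, PKM2, LDHA, LDHB, ALDOC, PGAM1 and GPI. Of these 10 symbols, 9 were listed, each as 1 record and each in all 6 libraries, among 10964 records in the series. ALDOC was not listed under its symbol. All libraries were total RNA of Gallus gallus, with 1 library per group: the dermal papilla, the mesenchymal pulp and the feather epithelium, all at growth phase, the dermal papilla at resting phase, and the regenerating feather follicle 2 and 4 days after wounding. The labels state no breed, age, sex or genotype and no number of pooled birds, and no treatment other than the wound. With 1 library per group no difference below has a replicate check, and the 95% intervals cover counting error only.

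Glycolysis splits glucose into pyruvate in the cytosol, with a small yield of ATP and NADH. Lactate dehydrogenase turns pyruvate into lactate and back, and so regenerates the NAD+ that keeps the pathway running when pyruvate is not burned in mitochondria. Proliferating and poorly oxygenated tissues are known for a high use of the pathway. The dermal papilla is the mesenchymal cluster at the follicle base that instructs the overlying epithelium, the pulp is the vascular mesenchyme inside the growing feather, and the epithelium makes the keratinised feather itself.

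Levels are written as CPM, the count divided by the library total in units of 1e+06 reads, after TMM scaling (trimmed mean of M values). They are not divided by transcript length, so a level is compared between libraries and not between genes. Total reads per library ranged from 3269377 to 3410045, except in the deeper pulp (5683214) and epithelium (6064788). The pulp and epithelium tables also had their own text layout, so a papilla value set against either of them is also set across layouts, and tissue and layout cannot be told apart there. The TMM factor of the epithelium was 0.688, against 0.997 to 1.17 in the other 5, and its 10 most abundant records took 28.6% of the listed counts, against 9.56% to 16.1% elsewhere. Ratios that involve the epithelium therefore depend on this scaling, and the deposited per-million values, which lack it, are given beside the members' ratios. In whole tissue, fewer cells of a type and less RNA per cell cannot be told apart.

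Together the 9 records took 1.46% of the listed counts in the growth papilla, 1.15% in the pulp and 1.28% in the epithelium. Their share was 0.955% in the resting papilla, 1.35% at day 2 and 1.46% at day 4. At the TMM scale their sum was instead highest in the epithelium (7457 CPM). It was 6131 CPM in the growth papilla, 5576 CPM at day 4, 5059 CPM at day 2, 4688 CPM in the pulp and 3657 CPM in the resting papilla. With the deposited per-million values the sum was highest at day 4 (6515). GAPDH alone made up 50.7% to 64.0% of these reads, so the sum mostly follows GAPDH. At their own scale the members did not move as a block. Of the 9, 5 were highest in the epithelium (ENO1, PGK1, PKM2, PGAM1 and GPI), while TPI1 and GAPDH were highest in the growth papilla, LDHB in the pulp and LDHA in the day 2 follicle. The pulp held the lowest level of 7 of the 9, and the resting papilla the lowest of GAPDH and LDHB. With the deposited per-million values the same 7 were lowest in the pulp, 4 of the 5 stayed highest in the epithelium, PGK1 and GAPDH were highest at day 4 instead, and LDHB was lowest in the epithelium.

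**Figure D1:**
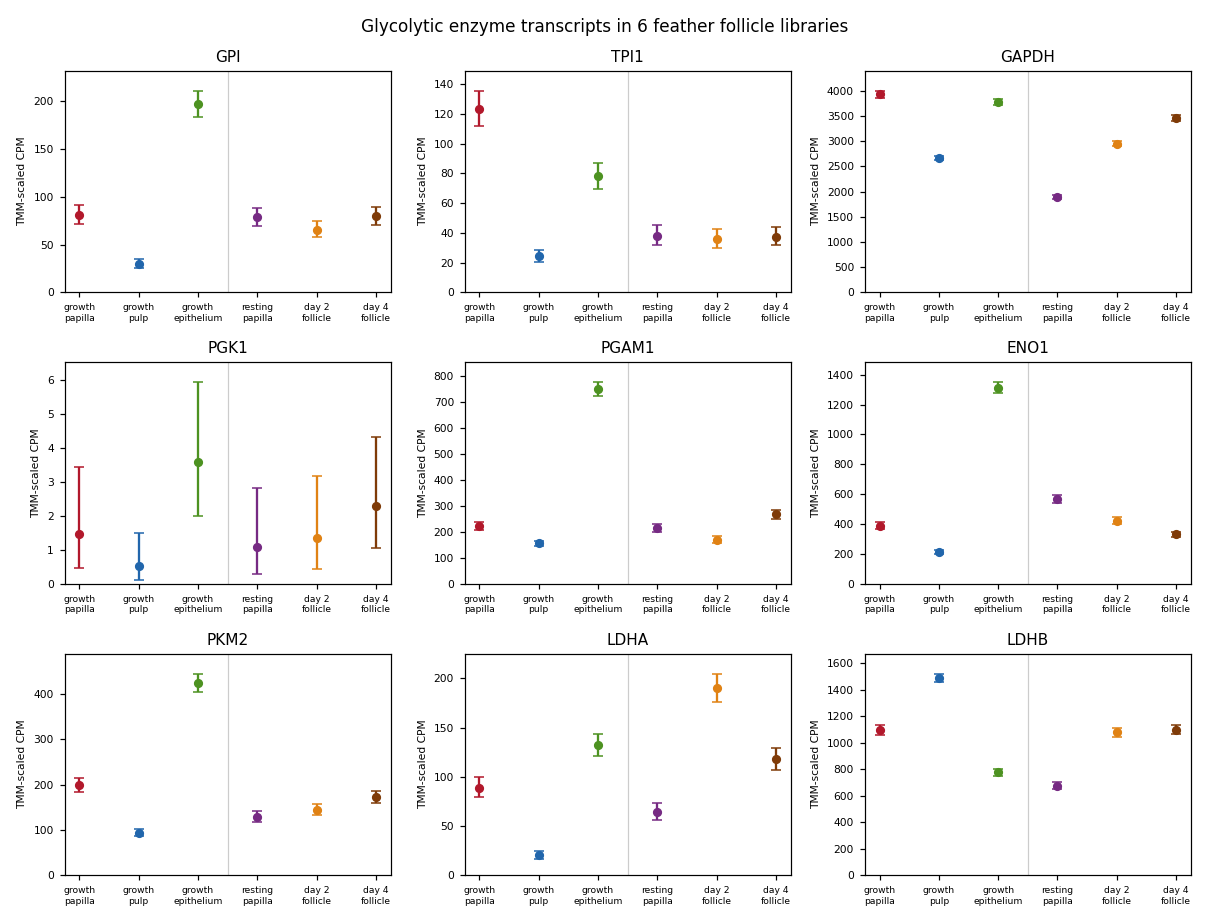
TMM-scaled CPM (y axis, from 0, linear) of the 9 glycolytic enzymes in the 6 libraries (x axis), 1 point per library with its exact Poisson 95% interval. ENO1, PGAM1, PKM2 and GPI stand highest in the growth epithelium, TPI1 in the growth papilla, LDHB in the growth pulp and LDHA in the day 2 follicle, while PGK1 rests on 3 to 15 reads per library.

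The first member in pathway order was GPI, glucose phosphate isomerase, which converts glucose 6-phosphate to fructose 6-phosphate. GPI stood at 81.5 CPM in the growth papilla, 29.9 CPM in the pulp, 197 CPM in the epithelium, 78.6 CPM in the resting papilla, 65.6 CPM at day 2 and 79.7 CPM at day 4. The epithelium was the high library, the pulp the low one, and the growth papilla, day 4 follicle and resting papilla did not separate beyond counting error. TPI1, triosephosphate isomerase, interconverts the triose phosphates that aldolase releases. Its level was 123 CPM in the growth papilla (418 reads), 24.4 CPM in the pulp (142 reads), 77.9 CPM in the epithelium (325 reads), 38.2 CPM in the resting papilla (139 reads), 35.9 CPM at day 2 (132 reads) and 37.6 CPM at day 4 (148 reads). The growth papilla stood above all the others, and the resting papilla and both regenerating follicles formed a flat group whose neighbours lay within counting error.

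GAPDH, glyceraldehyde-3-phosphate dehydrogenase, makes the NADH of the pathway and is widely used as a housekeeping control. It was read at 3927 CPM in the growth papilla, 2659 CPM in the pulp, 3782 CPM in the epithelium, 1888 CPM in the resting papilla, 2949 CPM at day 2 and 3465 CPM at day 4. With 6871 to 15774 reads per library, all neighbours in the order of levels were separated beyond counting error. Its highest level was 2.08-fold its lowest (95% interval 2.02 to 2.14). Among 2631 records that reached 200 reads in any library, the median of this highest-to-lowest quotient was 3.21, computed with 1 CPM added to both levels, and 21.5% had a smaller quotient than GAPDH. The gap between its 2 highest libraries turned round under upper-quartile scaling (log2 ratio of growth papilla over epithelium -0.02, against 0.05 under TMM).

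The ATP-forming step that follows, phosphoglycerate kinase (PGK1), had few reads on its record. Whether that record covers the whole transcript was not tested, so its level is not read as that of the step. PGK1 had 5 reads in the growth papilla, 3 in the pulp, 15 in the epithelium, 4 in the resting papilla, 5 at day 2 and 9 at day 4. No neighbours in the order of levels separated, and since no library reached 20 reads, PGK1 was left out of all counts of members below. The counts of members therefore refer to 8 of the 9.

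PGAM1, phosphoglycerate mutase, and ENO1, alpha-enolase, catalyse consecutive steps and both peaked in the epithelium. PGAM1 stood at 223 CPM in the growth papilla, 156 CPM in the pulp, 750.4 CPM in the epithelium, 214 CPM in the resting papilla, 169.8 CPM at day 2 and 268 CPM at day 4. ENO1 stood at 391 CPM in the growth papilla, 214 CPM in the pulp, 1313 CPM in the epithelium, 567 CPM in the resting papilla, 424 CPM at day 2 and 332 CPM at day 4. Outside the epithelium they were ordered differently: the resting papilla came second for ENO1, and the day 4 follicle second for PGAM1. PKM2, the muscle-type pyruvate kinase, forms pyruvate and ATP in the last step. It stood at 199 CPM in the growth papilla, 94.1 CPM in the pulp, 424 CPM in the epithelium, 129 CPM in the resting papilla, 144 CPM at day 2 and 173 CPM at day 4. The epithelium was again high and the pulp low, and the day 2 follicle did not separate from the resting papilla.

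LDHA and LDHB encode the subunits of the lactate dehydrogenase tetramer. LDHA predominates in skeletal muscle and is associated with the making of lactate, and LDHB predominates in heart and is associated with its use. LDHA had 303 reads in the growth papilla, 120 in the pulp, 551 in the epithelium, 234 in the resting papilla, 698 at day 2 and 465 at day 4, which gave 89.2, 20.6, 132, 64.3, 190.0 and 118 CPM in that order of libraries. Day 2 was the high library and the pulp the low one, and the epithelium and day 4 follicle did not separate. LDHB had 3726 reads in the growth papilla, 8655 in the pulp, 3245 in the epithelium, 2460 in the resting papilla, 3964 at day 2 and 4331 at day 4, or 1096, 1489, 778, 676, 1079 and 1099.55 CPM in the same order. Here the pulp was highest, and the growth papilla and both regenerating follicles lay within counting error of their neighbours.

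The growth papilla was set against the growth epithelium, which asks how the signalling mesenchyme differs from the tissue it instructs. Of the 8 members with at least 20 reads in either library, the papilla had 4 lower by 2-fold or more and 0 higher. Of all 6362 records tested, 25.0% were higher by that size, 22.7% lower and 47.6% either. PGAM1 was 3.36-fold lower (3.11 to 3.65), ENO1 3.36-fold lower (3.16 to 3.57), GPI 2.42-fold lower (2.11 to 2.78) and PKM2 2.13-fold lower (1.95 to 2.33). TPI1 lay on the other side, 1.58-fold higher in the papilla (1.36 to 1.83), as did LDHB at 1.41-fold (1.34 to 1.48). LDHA was 1.48-fold lower (1.29 to 1.71), and GAPDH had a ratio of 1.04 (1.01 to 1.06). Both depended on the scaling: their log2 ratios were -0.56 and 0.05 under TMM, and -0.03 and 0.59 with the deposited values. The median log2 ratio of the 8 members was -0.82, against -0.05 for all records tested. With the deposited per-million values the median of all records was 0.45 and that of the members -0.29. On that scale 2 members were 2-fold lower (ENO1 and PGAM1) and 2 were 2-fold higher (TPI1, log2 ratio 1.18, and LDHB, log2 ratio 1.03).

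Against the growth pulp, the mesenchyme that lies above it, the growth papilla had higher levels of 7 of the 8 members beyond counting error, and 4 of them were at least 2-fold higher with 0 lower. All 6667 records tested gave 14.7% higher, 19.1% lower and 33.8% either. TPI1 was 5.04-fold higher in the papilla (4.15 to 6.14), LDHA 4.32-fold (3.49 to 5.38), GPI 2.72-fold (2.24 to 3.31) and PKM2 2.11-fold (1.89 to 2.37). ENO1 was 1.83-fold higher (1.69 to 1.97), GAPDH 1.48-fold (1.44 to 1.51) and PGAM1 1.43-fold (1.29 to 1.57). LDHB was the exception, 1.36-fold lower in the papilla (1.31 to 1.41). The members' median log2 ratio was 0.97, against -0.09 for all records.

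Pulp and epithelium came from tables of the same layout and similar depth. In the pulp 6 of the 8 members were at least 2-fold lower and 0 higher, beside 26.7% higher, 20.4% lower and 47.1% either among the 6851 records tested. The lower members were GPI by 6.58-fold (5.58 to 7.80), LDHA by 6.40-fold (5.24 to 7.86), ENO1 by 6.13-fold (5.76 to 6.53), PGAM1 by 4.80-fold (4.46 to 5.17), PKM2 by 4.50-fold (4.09 to 4.96) and TPI1 by 3.19-fold (2.61 to 3.91). LDHB went the other way and was 1.91-fold higher in the pulp (1.84 to 1.99), while GAPDH was 1.42-fold lower (1.39 to 1.45). The median log2 ratio of the members was -2.21, against 0.08 for all records. As deposited, these medians were -1.64 and 0.61, the same 6 members were 2-fold lower, LDHB passed 2-fold (log2 ratio 1.51), and GAPDH changed sign (log2 ratio 0.06, against -0.51 under TMM).

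**Figure D2:**
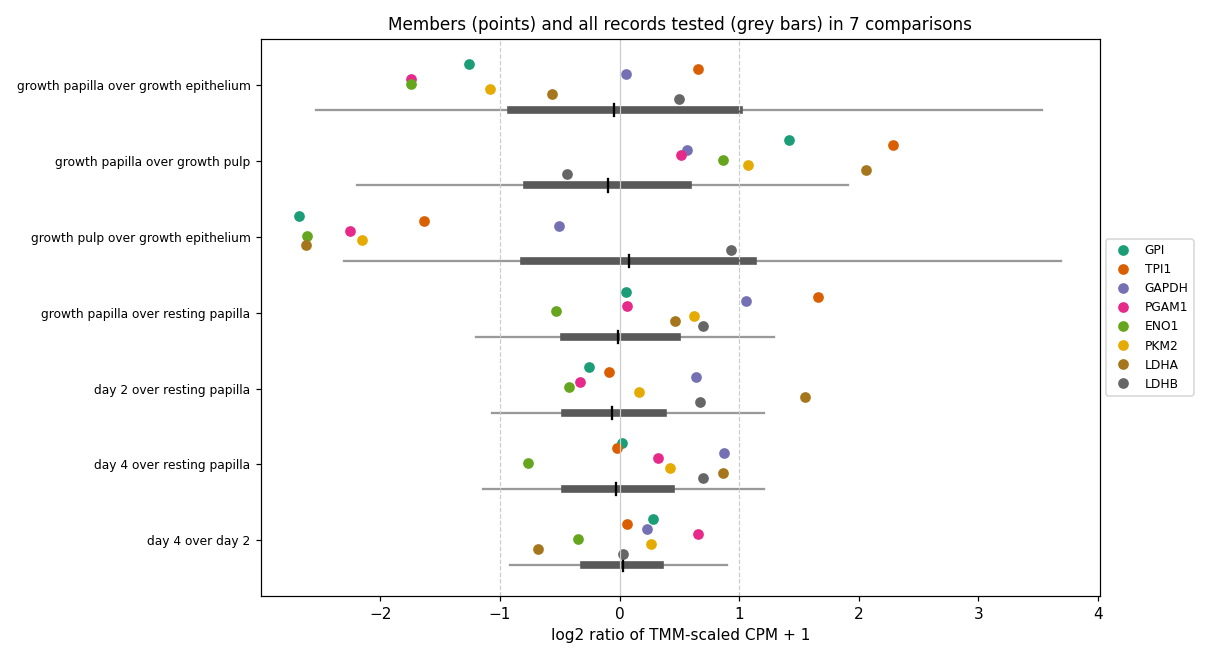
Log2 ratio of TMM-scaled CPM + 1 (x axis) in 7 comparisons (rows), with 1 coloured point for each of the 8 members with at least 20 reads. Grey bars below the points show all records tested (thin, 5th to 95th percentile; thick, quartiles; black tick, median), and dashed lines mark 2-fold. In the pulp over epithelium row 6 members lie left of -1 and LDHB lies at 0.94, while in the day 4 over day 2 row all 8 lie between the dashed lines.

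Papillae of the 2 phases were then compared. TPI1 and GAPDH were at least 2-fold higher in the growth papilla and 0 of the 8 members lower, beside 9.35% higher, 7.97% lower and 17.3% either of 5957 records. TPI1 was 3.22-fold higher (2.65 to 3.93), with 123 CPM in the growth papilla and 38.2 CPM in the resting papilla. GAPDH was 2.08-fold higher (2.02 to 2.14), just past the size rule (log2 ratio 1.06), and with the deposited values its log2 ratio was 0.93. LDHB was 1.62-fold higher (1.54 to 1.71), PKM2 1.54-fold (1.37 to 1.74) and LDHA 1.39-fold (1.17 to 1.65). PGAM1 and GPI differed by ratios of 1.04 whose intervals included 1 (0.942 to 1.15 and 0.876 to 1.23), and both had log2 ratios of the other sign, -0.06 and -0.07, with the deposited values. ENO1 was 1.45-fold lower in the growth papilla (1.35 to 1.56). The members' median log2 ratio was 0.54 and that of all records -0.02.

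Regeneration was read against the resting papilla, the only resting library, although the regenerating samples are labelled as follicle and not as papilla. At day 2, LDHA was at least 2-fold higher than in the resting papilla, 0 members were lower, and of 6013 records 7.03% were higher, 6.00% lower and 13.0% either. LDHA was 2.95-fold higher (2.54 to 3.44), with 698 reads at day 2 and 234 in the resting papilla. LDHB was 1.60-fold higher (1.52 to 1.68) and GAPDH 1.56-fold (1.52 to 1.61). ENO1 was 1.34-fold lower (1.25 to 1.43), PGAM1 1.26-fold lower (1.13 to 1.40) and GPI 1.20-fold lower (1.01 to 1.43). TPI1 had a ratio of 0.941 (0.736 to 1.20) and PKM2 one of 1.12 (0.987 to 1.27), both with 1 inside the interval. The members' median log2 ratio, 0.04, lay close to that of all records, -0.06.

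At day 4, 0 of the 8 members were 2-fold from the resting papilla in either direction, and of 6090 records 8.23% were higher, 6.90% lower and 15.1% either. For 8 members, a count of 0 lies near that share. With the deposited values GAPDH and LDHA lay just under the size rule (log2 ratios 0.98 and 0.97). GAPDH and LDHA were both 1.84-fold higher (1.78 to 1.89 and 1.57 to 2.16), LDHB 1.63-fold (1.55 to 1.71), PKM2 1.34-fold (1.19 to 1.51) and PGAM1 1.25-fold (1.14 to 1.38). ENO1 was 1.71-fold lower (1.59 to 1.83). GPI had a ratio of 1.01 (0.861 to 1.19), and TPI1 one of 0.984 (0.775 to 1.25), which lay above 1 with the deposited values (log2 ratio 0.08). The members' median log2 ratio was 0.37, against -0.03 for all records. Day 2 and day 4 share the resting papilla as their comparator, so their values are not independent.

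Day 4 against day 2 also gave 0 members 2-fold apart, with 3.77% of 6048 records higher, 3.84% lower and 7.61% either. PGAM1 was 1.58-fold higher at day 4 (1.43 to 1.75), and LDHA 1.61-fold lower (1.43 to 1.81). ENO1 was 1.28-fold lower (1.18 to 1.37), while GAPDH was 1.17-fold (1.15 to 1.21), PKM2 1.20-fold (1.07 to 1.35) and GPI 1.22-fold higher (1.02 to 1.44). LDHB and TPI1 had ratios of 1.02 and 1.05, with intervals from 0.976 to 1.06 and from 0.821 to 1.33. Across rest, day 2 and day 4, ENO1 thus had its highest level at rest and its lowest at day 4, GAPDH the reverse, and LDHA stood highest at day 2.

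The ratio of reads between 2 members of the same library needs no scaling between libraries, and a change in it between libraries does not depend on transcript length. For every 100 LDHB reads there were 8.13 LDHA reads in the growth papilla (7.21 to 9.14), 1.39 in the pulp (1.15 to 1.66), 17.0 in the epithelium (15.5 to 18.6), 9.51 in the resting papilla (8.28 to 10.9), 17.6 at day 2 (16.2 to 19.1) and 10.7 at day 4 (9.74 to 11.8). The epithelium and the day 2 follicle were high, with overlapping intervals, and the pulp lay far below the rest. The ratio in the growth papilla was 5.86-fold that in the pulp (4.71 to 7.33) and 0.479 of that in the epithelium (0.412 to 0.556). At day 2 this ratio was 1.85-fold that of the resting papilla (1.58 to 2.17), and at day 4 it was 1.13-fold, with an interval that included 1 (0.955 to 1.34).

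ENO1 and GAPDH separated the libraries in another way. Per 100 GAPDH reads there were 9.96 ENO1 reads in the growth papilla (9.41 to 10.5), 8.05 in the pulp (7.60 to 8.53), 34.7 in the epithelium (33.7 to 35.8), 30.1 in the resting papilla (28.6 to 31.6), 14.4 at day 2 (13.6 to 15.2) and 9.59 at day 4 (9.06 to 10.2). The epithelium and the resting papilla were the high libraries, and the intervals of the day 4 follicle and the growth papilla overlapped. TPI1 set the growth papilla apart: per 100 ENO1 reads it had 31.5 TPI1 reads there (28.1 to 35.1), against 11.4 in the pulp, 5.93 in the epithelium, 6.73 in the resting papilla, 8.48 at day 2 and 11.3 at day 4. PGAM1 per 100 ENO1 reads was 57.0 in the growth papilla and 57.1 in the epithelium, although the level of each differed 3.36-fold between them.

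**Figure D3:**
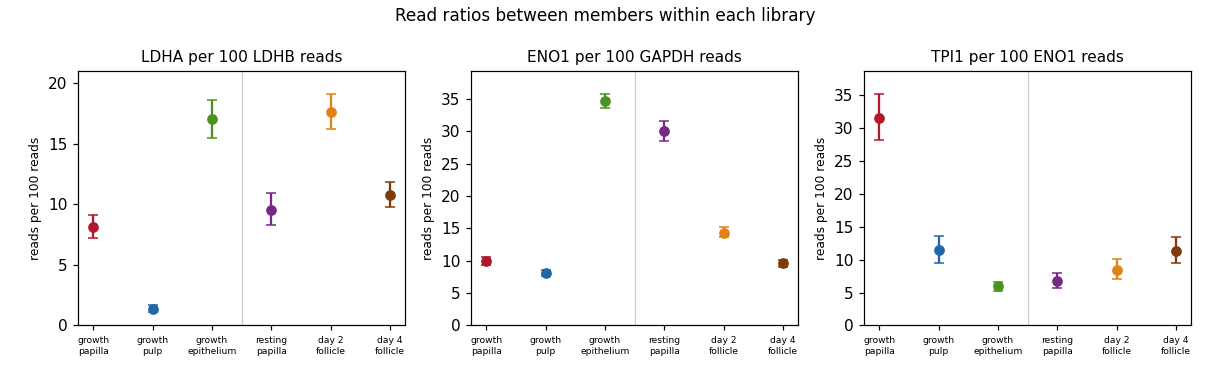
Reads of one member per 100 reads of another within each library (y axis, linear from 0), with exact 95% binomial intervals, for the 6 libraries (x axis). LDHA per LDHB is highest in the growth epithelium (17.0) and at day 2 (17.6) and lowest in the pulp (1.39), ENO1 per GAPDH is high in the growth epithelium (34.7) and resting papilla (30.1), and TPI1 per ENO1 is highest in the growth papilla (31.5).

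Similarity between the members was summed up as the root mean square (RMS) difference of their log2 levels over the 6 libraries, each centred on its own mean. PKM2 and PGAM1 were the closest pair (0.26), followed by PKM2 and GPI (0.27), and LDHA and LDHB were the farthest (1.21). LDHB (0.77) and LDHA (0.72) also lay farthest from the mean profile of all 9 members. Outside the list, 2484 named records reached 200 reads. The 5 nearest to that mean profile were AIMP2, ARPP19, TXNL5, NUS1 and DAZAP1, at RMS differences of 0.08 to 0.13. As they were picked for the smallest distance, they lie below the median record (0.76) by construction. The members' own distances ran from 0.16 for PGK1, the record with few reads, to 0.77 for LDHB. AIMP2, a scaffold of the multi-tRNA synthetase complex, had 41.8 CPM in the growth papilla, 23.0 CPM in the pulp, 65.7 CPM in the epithelium, 31.3 CPM in the resting papilla, 33.2 CPM at day 2 and 37.6 CPM at day 4. These 6 points per record share the scaling factors and the pair of table layouts.

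The remaining glycolytic genes were sparse. Of 19 further enzymes, 12 were listed and 6 reached 20 reads in some library. Against the epithelium the growth papilla had 3 of 6 at least 2-fold higher and 1 lower (median log2 ratio 0.39), beside 25.0% and 22.7% of all records. Higher were HK1, the hexokinase that traps glucose in the cell, by 5.01-fold (2.63 to 10.4), phosphoglucomutase PGM1 by 8.42-fold (5.30 to 14.0), and the platelet-type phosphofructokinase PFKP, the committed step, by 2.26-fold (1.98 to 2.58). Only ADPGK, an ADP-dependent glucokinase, was lower among these 6, by 2.89-fold (2.07 to 4.10), and with the deposited values it lay within 2-fold (log2 ratio -0.94). HK1 (12 reads there) and PFKP were thus lowest in the epithelium, where ENO1, PGAM1 and PKM2 were highest. GPI, the step between HK1 and PFKP, was also highest there (197 CPM), so the head of the pathway was not uniformly low. ADPGK had 39.1 CPM in the epithelium, 13.5 CPM in the growth papilla and 48.0 CPM in the pulp. PFKP stood at 186 CPM in the growth papilla, 101 CPM in the pulp, 82.5 CPM in the epithelium, 100.6 CPM in the resting papilla, 112 CPM at day 2 and 119 CPM at day 4.

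In each of the other 6 comparisons, 0 to 2 of these enzymes were past 2-fold, beside 7.61% to 47.1% of all records in either direction. Against the pulp, 0 of 5 were higher in the growth papilla and 1 lower (ADPGK, by 3.55-fold, 2.59 to 4.96). Pulp over epithelium gave 2 of 6 higher and 0 lower, PGM1 at 5.94-fold (3.77 to 9.85) and HK1 with 48 reads in the pulp and 12 in the epithelium. Against the resting papilla, PGM1 was 2.53-fold higher in the growth papilla (1.86 to 3.47), the 1 enzyme of 5 past 2-fold. ADPGK was higher than in the resting papilla at day 2 by 2.07-fold (1.49 to 2.91) and at day 4 by 3.23-fold (2.38 to 4.44), each time the 1 enzyme of 5 past 2-fold. At day 4 against day 2, 0 of 5 passed 2-fold, and ADPGK was 1.56-fold higher (1.23 to 1.98). A record described as similar to aldolase C had 15 reads in the growth papilla, 183 in the pulp, 108 in the epithelium, 10 in the resting papilla, 14 at day 2 and 35 at day 4. Its gene identifier belongs to SPAG5, a mitotic spindle gene, in the RefSeq gene table used for names, so these reads were not taken as aldolase.

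Transport and control genes were read next. Of 20 genes on this list, 14 were listed and 9 reached 20 reads in some library. The growth papilla exceeded the pulp at least 2-fold in 4 of 7 with 1 lower (median log2 ratio 1.21), beside 14.7% and 19.1% of all records. The lactate carrier SLC16A1 was 2.67-fold higher (2.12 to 3.36), the glucose transporter SLC2A1 2.63-fold (1.75 to 4.00), PFKFB3, which makes the activator of phosphofructokinase, 2.83-fold (1.64 to 4.97), and the pyruvate dehydrogenase kinase PDK3 2.42-fold (1.80 to 3.26). Pulp against epithelium had 1 of 7 higher and 3 lower, beside 26.7% and 20.4% of all records, with SLC16A1 lower by 4.39-fold (3.59 to 5.40) and BSG, the membrane partner that carries lactate transporters to the cell surface, 5.24-fold higher (4.75 to 5.80). BSG was also higher in the growth papilla than in the epithelium, by 4.13-fold (3.71 to 4.60), and PDK3 was the other of 2 among 7, with 0 lower, beside 25.0% and 22.7% of all records. With the deposited values pulp over epithelium had 2 higher and 1 lower: PFKFB3 and SLC2A1 lay within 2-fold (log2 ratios -0.71 and -0.51) and PFKFB4, an isoform of PFKFB3 named here after its value was seen, passed it (1.07). The median log2 ratio of all records also moved there, from 0.08 under TMM to 0.61 as deposited.

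Between papillae, 3 of 8 of these genes were higher in the growth phase and 1 lower, beside 9.35% and 7.97% of all records. BSG was 2.91-fold higher (2.64 to 3.21), SLC2A1 2.50-fold (1.57 to 4.08) and SLC16A1 2.14-fold (1.67 to 2.75), although with the deposited values SLC16A1 lay within 2-fold (log2 ratio 0.95), which left 2 of 8. PDK4, the kinase that turns pyruvate away from the mitochondrion and is known for its induction by fasting, had 2 reads in the growth papilla and 52 in the resting papilla (24.3-fold lower, 6.39 to 206). It was also lower than in the resting papilla at day 2 by 4.04-fold (2.17 to 8.08) and at day 4 by 5.12-fold (2.64 to 10.9). At day 2, 1 of 8 was higher than in the resting papilla (7.03% of all records), PFKFB3 by 2.72-fold (1.68 to 4.55), and at day 4 none of the 8 was (8.23%). PFKFB3 was then 3.54-fold lower at day 4 than at day 2 (2.12 to 6.16), the 1 gene of 7 past 2-fold, beside 7.61% of all records in either direction.

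**Figure D4:**
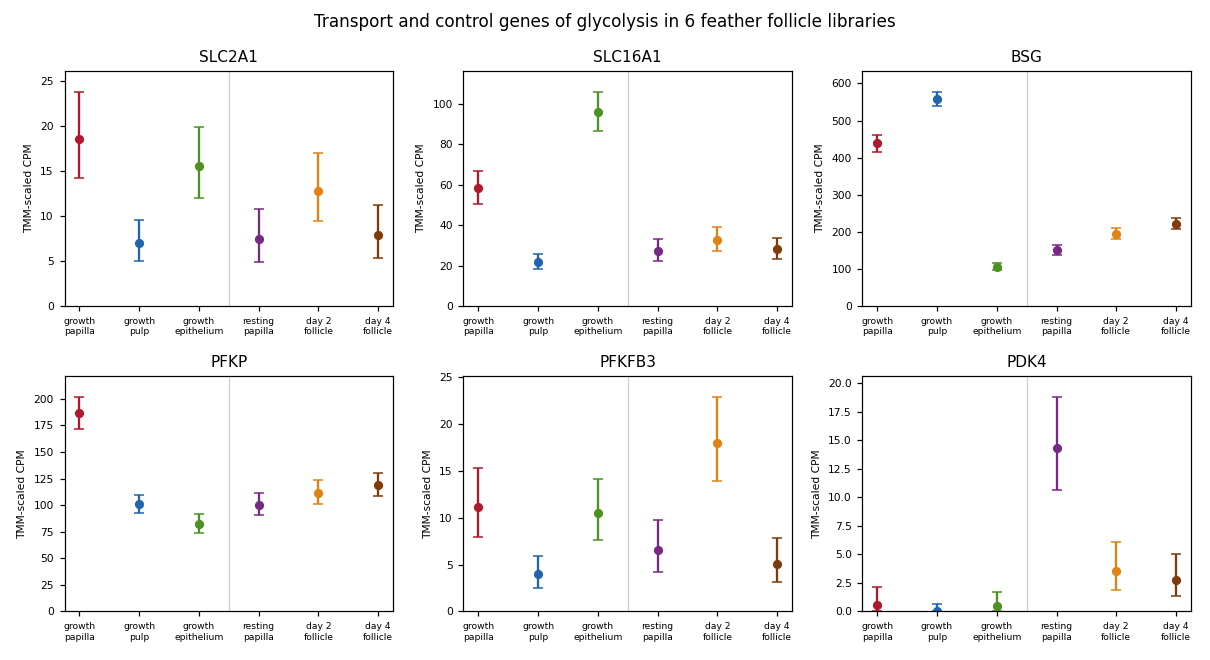
TMM-scaled CPM (y axis, linear from 0) of 6 transport and control genes in the 6 libraries (x axis), with exact Poisson 95% intervals. SLC16A1 is highest in the growth epithelium, BSG in the growth pulp, PFKP in the growth papilla, PFKFB3 at day 2 and PDK4 in the resting papilla (52 reads, against 2 to 13 in the 4 others that list it). PDK4 was unlisted in the pulp, where it is drawn at 0.

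From pyruvate import through the tricarboxylic acid cycle, 22 of 27 genes were listed, and the median log2 ratio lay between -0.27 and 0.25 in all 7 comparisons under TMM. In the growth papilla 5 of 20 were higher and 1 lower than in the epithelium, a higher share no larger than the 25.0% of all records (22.7% were lower). With the deposited values 6 were higher and 0 lower, but the median log2 ratio of all records also moved, from -0.05 to 0.45. Against the pulp 5 were again higher and 1 lower, beside 14.7% and 19.1%. IDH3A, a subunit of the NAD-dependent isocitrate dehydrogenase, was 10.4-fold higher than in the epithelium (6.78 to 16.6) and 5.51-fold higher than in the pulp (4.14 to 7.43), and cytosolic malate dehydrogenase MDH1 4.44-fold (3.84 to 5.14) and 3.72-fold (3.30 to 4.19). Pulp against epithelium had 3 of 20 higher and 5 lower (26.7% and 20.4% of all records at the TMM scale). With the deposited values 7 were higher and 2 lower, but the median log2 ratio of all records also moved, from 0.08 to 0.61. MDH2 was 5.56-fold lower in the pulp (4.82 to 6.43). PDHA1, the pyruvate dehydrogenase subunit that PDK kinases phosphorylate, was 4.74-fold lower (4.06 to 5.55). PDHA1 was also lower than in the resting papilla at both times after wounding, by 2.10-fold at day 2 (1.78 to 2.49) and 2.11-fold at day 4 (1.79 to 2.48), the day 4 value within 2-fold as deposited (log2 ratio -0.96). There, 1 of 21 was higher and 2 lower at day 2 (7.03% and 6.00% of all records), and 2 higher and 2 lower at day 4 (8.23% and 6.90%), with 1 lower at each time as deposited. The growth papilla had 3 of 21 higher than the resting papilla (2 as deposited) and 0 lower, beside 9.35% and 7.97%, led by OGDH at 3.10-fold (2.21 to 4.41), and day 4 over day 2 gave 0 higher and 1 lower of 21, beside 3.77% and 3.84% (IDH3A, 3.32-fold, 2.32 to 4.85).

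Of 10 pentose phosphate genes, 5 were listed and 4 could be compared. Of these 4, 2 were lower in the growth papilla than in the epithelium: PGLS, by 3.38-fold (2.89 to 3.96), and RPIA, which lay within 2-fold with the deposited values (22.7% of all records were lower). Against the pulp 3 were lower in the growth papilla (19.1% of all records). In the pulp PGLS was 3.18-fold lower than in the epithelium (2.81 to 3.60), while PGD was 1.75-fold (1.33 to 2.33), PRPS1 1.57-fold (1.36 to 1.82) and RPIA 1.48-fold higher (1.17 to 1.88). With the deposited values those 3 passed 2-fold higher (log2 ratios 1.31 for PGD and 1.20 for PRPS1), where the median of all records was 0.61. PGD was 2.12-fold higher at day 4 than in the resting papilla (1.37 to 3.34), just under the size rule with 1 CPM added and past it as deposited (log2 ratio 1.11). No other gene of the 4 was past 2-fold in the papilla and regeneration comparisons. Of 9 gluconeogenesis and glycerol genes, FBP1 alone reached 20 reads. It had 5 reads in the growth papilla, 60 in the pulp, 26 in the epithelium, 8 in the resting papilla, 10 at day 2 and 29 at day 4. FBP1, which reverses the phosphofructokinase step, was lower in the growth papilla than in the epithelium by 4.24-fold (1.60 to 14.1). Against the pulp it was lower by 7.01-fold (2.84 to 22.4), beside 22.7% and 19.1% of all records. It was higher at day 4 than at day 2 by 2.71-fold (1.28 to 6.22) and than at rest by 3.35-fold (1.49 to 8.48), beside 3.77% and 8.23%. Only the interval against the pulp stayed past 2-fold. Pulp over epithelium it was within 2-fold under TMM and past it as deposited (log2 ratios 0.65 and 1.13).

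Genes that respond to low oxygen, which include known partners of glycolytic gene control, were listed for 19 of 27 symbols. Against the epithelium the growth papilla had 7 of 16 higher and 4 lower (median log2 ratio 0.90), beside 25.0% and 22.7% of all records. With the deposited values 10 were higher and 4 lower, but the median log2 ratio of all records also moved, from -0.05 to 0.45. Pulp against epithelium had 4 higher and 4 lower (median log2 ratio 0.05), beside 26.7% and 20.4%. As deposited 5 were higher and 2 lower, and the median of all records moved from 0.08 to 0.61. These shares of all records are at the TMM scale. The mitophagy receptor BNIP3L was high in the epithelium, 7.57-fold lower in the growth papilla (6.48 to 8.89) and 8.23-fold lower in the pulp (7.24 to 9.38). The oxygen-sensing hydroxylase EGLN3 had 3 reads in the growth papilla and 78 in the epithelium (21.2-fold lower, 6.99 to 105), and, unlisted in the pulp, it was at least 36.2-fold lower there, at 3 counts for that library. HIF1A itself, the oxygen-regulated subunit, had 464 reads in the growth papilla, 350 in the pulp, 357 in the epithelium, 298 in the resting papilla, 295 at day 2 and 306 at day 4. These reads are not scaled, and the pulp and epithelium libraries were deeper, so the reads do not order the libraries by HIF1A level. Against the pulp 5 of 15 were higher in the growth papilla and 1 lower (14.7% and 19.1% of all records), with the collagen-modifying PLOD2 6.74-fold higher (5.50 to 8.32).

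Between papillae and after wounding, smaller shares of this list and of all records passed 2-fold. NDRG1 was 2.26-fold lower in the growth papilla than at rest (1.84 to 2.79) and the vasodilator peptide ADM 2.27-fold lower (1.68 to 3.09), the 2 lower genes of 14, with 1 higher (7.97% of all records lower, 9.35% higher). With the deposited values BNIP3 passed 2-fold lower as well. At day 2, ADM was 2.16-fold higher than in the resting papilla (1.78 to 2.64), the 1 gene of 13 past 2-fold (13.0% of all records in either direction). By day 4 BNIP3 was 2.50-fold lower (2.20 to 2.84) and PLOD2 2.07-fold lower (1.72 to 2.49; log2 ratio -0.93 as deposited), with 0 higher of 13 (6.90% of all records lower, 8.23% higher). Day 4 over day 2 gave none of 13, beside 7.61% in either direction.

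Markers of the cell types in each library are given beside these values, and their part in the results was not tested. Epithelial markers, 12 of 15 listed, summed to 765 CPM in the growth papilla, 119.7 CPM in the pulp, 13263 CPM in the epithelium, 1502.5 CPM in the resting papilla, 2055 CPM at day 2 and 2719 CPM at day 4. KRT5, EPCAM and TP63 were not listed at all, ITGB4 was unlisted in the epithelium library, and CLDN1, TGM3, DSP and ITGB4 in the pulp. This sum was highest in the epithelium and lowest in the pulp, as were ENO1, PKM2, PGAM1 and GPI. FABP5 alone gave 11060 CPM of it in the epithelium. KRT14 and KRT75 were instead highest at day 2 (1051 and 84.4 CPM), with 479 and 7.91 CPM in the epithelium. KRT14 alone gave 616 of the 765 CPM in the growth papilla, and 449.5 of the 1502.5 CPM in the resting papilla. Of 11 epithelial markers compared, 10 were at least 2-fold lower in the growth papilla than in the epithelium, beside 22.7% of all records. In the pulp 10 of 11 were, beside 20.4%. Against the resting papilla, 8 of 9 were at least 2-fold lower in the growth papilla and 0 higher, beside 7.97% and 9.35% of all records. The 9th, KRT14, had a ratio of 1.37 (1.28 to 1.46). Against the pulp, 6 of 7 were higher in the growth papilla and 0 lower, beside 14.7% and 19.1%. Smooth muscle markers, 11 of 15 listed, summed to 28349.6 CPM in the growth papilla, 902 CPM in the pulp, 278 CPM in the epithelium, 8089.55 CPM in the resting papilla, 2481 CPM at day 2 and 2752 CPM at day 4, with DES, SYNPO2 and MYOCD unlisted in the epithelium. TPI1 shared its highest library with this sum but not the order of the others. It was second highest in the epithelium (77.9 CPM), where the sum was lowest. At rest it had 38.2 CPM, against 35.9 CPM at day 2 and 37.6 CPM at day 4. Of 10 smooth muscle markers compared, 9 were at least 2-fold higher in the growth papilla than in the pulp and 1 lower, beside 14.7% and 19.1% of all records. The lower one was PDGFRB, by 6.15-fold (4.62 to 8.34).

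Fibroblast markers, 13 of 15 listed, summed to 5614 to 8871 CPM in 5 libraries and to 166 CPM in the epithelium, where COL1A1, VIM and PDGFRA were unlisted. Leukocyte markers, 13 of 15 listed, summed to 309 CPM in the growth papilla, 1526 CPM in the pulp, 33.6 CPM in the epithelium, 317 CPM in the resting papilla, 564 CPM at day 2 and 546 CPM at day 4. This sum was higher at day 2, the high library of LDHA, than in either papilla. It was highest in the pulp, where LDHA was lowest (20.6 CPM), and lowest in the epithelium, where LDHA had 132 CPM. CD74 alone gave 235 CPM of the leukocyte sum in the growth papilla and 231 CPM in the resting papilla. Endothelial markers, 15 of 15 listed, summed to 722 CPM in the pulp, the high library of LDHB, to 19.9 CPM in the epithelium and to 298 to 519 CPM elsewhere. In the epithelium library only 7 of the 15 were listed, and PECAM1 alone gave 14.6 CPM of that sum. Of the erythroid markers, 3 of 13 were listed, and HBA1 had 357 CPM in the pulp, 147 CPM at day 2, 146 CPM at day 4 and 11.8 to 98.0 CPM in the other 3 libraries. The other erythroid marker with at least 20 reads, TAL1, was ordered differently, with 8.53 CPM in the growth papilla, 8.94 CPM in the pulp, 3.36 CPM in the epithelium, 2.47 CPM in the resting papilla, 25.0 CPM at day 2 and 15.2 CPM at day 4. Skeletal muscle markers, 6 of 17 listed, summed to 111 CPM in the growth papilla and to 55.9 to 79.6 CPM elsewhere, and MYH1, MYLPF and CKM were among those not listed. Of 3 compared, ACTA1 and TNNC1 were at least 2-fold higher in the growth papilla than in the pulp (14.7% of all records) and at rest (9.35%). NEB lay within 2-fold in both. TNNC1 was highest in the epithelium, with 59.2 CPM (247 reads), against 34.4 CPM in the growth papilla (117 reads). ACTA1 had 129 reads in the growth papilla, 11 in the pulp, 36 in the resting papilla, 4 at day 2 and 3 at day 4, and was unlisted in the epithelium.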

How the data were processed

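Total RNA (4 to 6 micrograms, Trizol) was sequenced from 6 samples with standard Illumina libraries, per the labels' protocols. The authors deposited whole-number counts per RefSeq record, none under 2. The deposited column headed TPM is in RPM: the count over a library total recovered from records with at least 500 counts, of which listed counts made up 40.0% to 44.5%. The genome build is mm10, a mouse build, per the submitters' processing notes. Not given in the sources used here: aligner, counting method, strand. Thus reads shared by similar transcripts, such as LDHA and LDHB, may have been split. Coordinates were not used.

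TMM factors came from edgeR 4.0.16 (R 4.3.3) over the 6 libraries. Calls used log2 of CPM plus a pseudocount of 1, at 2-fold, among records with at least 20 reads in either library. Printed folds are ratios of scaled counts with exact conditional binomial 95% intervals, for counting error only. Unlisted records were set to 3 counts in bounds. No test across genes was made, with 1 library per group. The calls and intervals were tested on simulated Poisson counts with known folds. These hold no variation between birds or libraries, so they check the computation only. Of 10964 records, 4949 were named by gene ID and 48 by accession through the RefSeq gene table (GRCg7b), and 4792 by the symbol in the files.

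Members and lists were chosen with earlier results of these data known. Named were all members, up to 4 genes per list and comparison by size of ratio, and the 5 nearest profiles; HIF1A, PFKFB4 in pulp over epithelium, HBA1 and the aldolase C record were named after their values were seen. One gene of the pathway lists is not reported here, and its list was counted without it. The 9 planned and 2 added alternatives are given below. Python 3.11.15 with scipy 1.17.1 and matplotlib 3.10.9 did the rest.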

Additional observations from a re-analysis of the deposited data

How the results depend on the processing

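Median-of-ratios and upper-quartile scaling, TMM with the top 100 records removed, a pseudocount of 0.1 or 5, dropping the filter, a minimum of 200 reads and summing records by symbol each left the counts of members past 2-fold within 1.5 times their value in all 7 comparisons. With the deposited per-million values, growth papilla over epithelium had 2 members higher and 2 lower, pulp over epithelium 1 higher, and growth papilla over resting papilla 1 higher. A 1.5-fold size rule, chosen after seeing the data, gave more calls by its construction: 1 higher in growth papilla over epithelium, 1 higher in pulp over epithelium, 4 higher in growth papilla over resting papilla, 3 higher at day 2 over rest, 3 higher and 1 lower at day 4 over rest, and 1 higher and 1 lower at day 4 over day 2. TMM over the 4 libraries of the same layout, also added later, moved no such count. No called member reversed under these alternatives. As deposited, 25 of 56 member ratios left their counting interval and 4 changed sign (GAPDH, GPI, PGAM1 and TPI1, once each). GAPDH changed sign under upper-quartile scaling, TPI1 (day 4 over rest) and LDHB (day 4 over day 2) under median-of-ratios scaling, and TPI1 under TMM over 4 libraries, all from values near 0.

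The share of all records past 2-fold depended more on the settings. As deposited, 13.5% were lower in growth papilla over epithelium (22.7% under TMM) and 11.1% in pulp over epithelium (20.4%). At a pseudocount of 5, 12.1% were lower in growth papilla over pulp (19.1% at 1), 5.14% higher and 4.13% lower in growth over resting papilla (9.35% and 7.97%), 4.16% and 2.79% at day 2 over rest (7.03% and 6.00%), 4.17% and 3.60% at day 4 over rest (8.23% and 6.90%), and 1.27% and 1.69% at day 4 over day 2 (3.77% and 3.84%). With at least 200 reads, 2.06% were higher at day 4 over day 2. No paired analysis was possible because each group has 1 library, and for the same reason no library could be left out. PGK1, with 3 to 15 reads, has the widest intervals of the members.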
